A study of Homo sapiens with 12 samples.

Results

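The type I interferon response genes described here are 36 protein-coding genes, taken by gene symbol from the 58735 genes of the deposited expression table and followed through all 12 libraries. They comprise the 2 chains of the interferon receptor, 4 transcription factors, an RNA sensor, and effector families that interferon is known to induce. Type I interferons are secreted when a cell senses foreign or misplaced nucleic acid. They bind the receptor formed by IFNAR1 and IFNAR2, whose kinases activate STAT factors, and these join IRF9 into a complex that binds the interferon-stimulated response element in the promoters of target genes. Hepatocytes and hepatoma lines are known to mount this response against hepatitis viruses. Many target genes also keep a basal level without added interferon, set in part by the same factors in their unphosphorylated form.

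The groups were HepG2-labelled cells treated with geniposide for 48 h, untreated HepG2-labelled cells, Huh7-labelled cells treated with geniposide for 48 h, and untreated Huh7-labelled cells, with 3 libraries in each. HepG2 comes from a hepatoblastoma and Huh7 from a hepatocellular carcinoma, and geniposide is an iridoid glycoside of gardenia fruit. The study's title concerns ferroptosis through DUOX1. The dose and the solvent are not given in the labels, no interferon was listed among the treatments, and the labels do not say whether the 3 libraries of a group came from separate cultures, so p-values measure only the spread between these libraries.

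In HepG2-labelled cells, IFI6, IFIT2, IFIT3, OAS1, OAS3, OASL, IRF7, IRF9 and ISG15 were higher with geniposide, with ratios of the group means between 1.49 for OAS3 and 3.96 for IFI6. In the same libraries IFITM2, IFITM3, IFI35, SAMHD1 and USP18 were lower, with ratios between 0.406 for IFI35 and 0.680 for IFITM3. In Huh7-labelled cells ISG15 was higher and BST2 lower, USP18 was higher by a call that ended when any 1 of 4 libraries was left out, and 13 of the 36 members averaged at least 1 FPKM, with geniposide as without it. FPKM is the number of fragments per kilobase of gene, scaled to library size. In bulk libraries such as these, fewer cells that express a gene and less RNA per cell cannot be told apart. The 36 genes did not move as a block: in HepG2-labelled cells IFITM2 and IFITM3, among the most abundant members there, were lower while IFIT1, IFIT2, IFIT3, OAS1, OAS3 and OASL were higher.

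**Figure D1:**
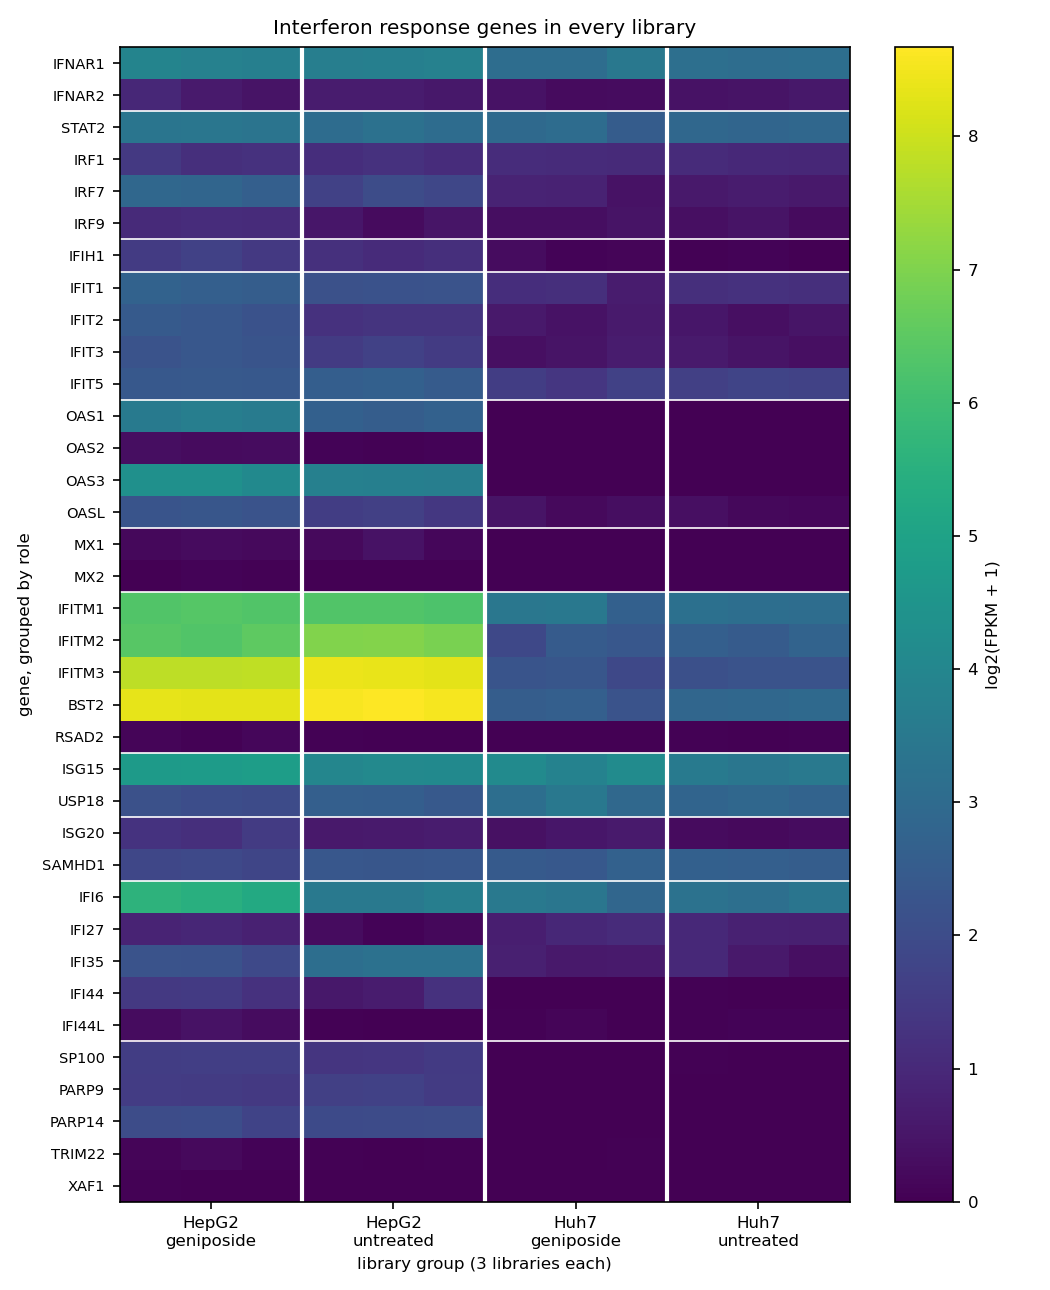
Heat map of log2(FPKM + 1) for the 36 genes (rows, grouped by role, white lines between roles) in the 12 libraries (columns, 3 per group). IFITM1, IFITM2, IFITM3 and BST2 stand out in the 6 HepG2-labelled libraries, and 13 genes averaged at least 1 FPKM in each of the 2 Huh7-labelled groups, against 27 in geniposide-treated and 24 in untreated HepG2-labelled cells.

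Libraries held 15056655 to 17211659 fragments in genes. A count of 0 allows up to 3 fragments, which is 0.161 to 0.212 FPKM in a gene of 1 kb, and this covers counting error only. The third geniposide-treated Huh7-labelled library stood apart, with a chi-square per degree of freedom of 43.4 and 44.9 against the other libraries of its group. Other pairs within groups had 2.20 to 6.58. The highest of these, 5.9 and 6.58, were of the third geniposide-treated HepG2-labelled library against its group, whose other pair had 2.44. None of 8 hepatocyte markers reached 1 FPKM in any library (highest 0.401, with APOB at 0 throughout), so the labels of the lines could not be matched to liver identity, and groups are named by label. Of 8 leukocyte markers 2 reached 1 FPKM in some library (highest 1.65, for LYZ, with PTPRC at 0.0606 or less), and 1 of 6 endothelial markers did. Fibroblast markers summed to 80.6 to 83.8 FPKM in geniposide-treated and 57.4 to 58.6 FPKM in untreated HepG2-labelled libraries, with LUM and DCN higher and PDGFRB lower with geniposide, and to 3.77 to 6.11 FPKM in the Huh7-labelled libraries (6 markers, 4 of which reached 1 FPKM in some library, with COL1A2 at 0 throughout). Their part in the results below was not tested.

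Promoters of interferon-stimulated genes are known to carry the element that the STAT and IRF9 complex binds, and 6 are shown because their genes hold the motif and stand for both directions: IFI6, IFIT1, OAS3 and ISG15 were higher with geniposide in HepG2-labelled cells and IFITM3 and BST2 lower. The sequences are RefSeq promoter windows (build GRCh38.p14, 250 bases before to 50 bases after the annotated start, on the strand of the gene). Capitals mark each match to GAAANNGAAA or to the same motif on the other strand, TTTCNNTTTC. Overlapping matches are both counted and run together in ISG15 and BST2.
IFI6, chr1:27672143-27672442, minus strand: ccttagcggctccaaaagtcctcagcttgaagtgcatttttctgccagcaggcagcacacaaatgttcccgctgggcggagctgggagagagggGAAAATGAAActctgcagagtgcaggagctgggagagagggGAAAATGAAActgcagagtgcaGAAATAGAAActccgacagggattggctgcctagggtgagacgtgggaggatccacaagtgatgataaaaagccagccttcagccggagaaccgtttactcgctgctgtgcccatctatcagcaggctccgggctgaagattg
IFIT1, chr10:89392373-89392672, plus strand: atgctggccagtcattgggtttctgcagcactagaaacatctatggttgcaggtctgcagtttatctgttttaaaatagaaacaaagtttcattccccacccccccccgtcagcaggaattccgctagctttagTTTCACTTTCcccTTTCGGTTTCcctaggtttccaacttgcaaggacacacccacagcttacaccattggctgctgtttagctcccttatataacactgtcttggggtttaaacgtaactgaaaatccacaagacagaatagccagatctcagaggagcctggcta
OAS3, chr12:112938224-112938523, plus strand: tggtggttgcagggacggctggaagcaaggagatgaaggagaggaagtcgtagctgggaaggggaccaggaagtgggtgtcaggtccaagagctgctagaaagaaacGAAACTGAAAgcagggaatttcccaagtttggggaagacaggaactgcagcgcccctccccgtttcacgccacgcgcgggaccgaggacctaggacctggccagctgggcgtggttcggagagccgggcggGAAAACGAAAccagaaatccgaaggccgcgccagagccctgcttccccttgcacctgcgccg
ISG15, chr1:1013247-1013546, plus strand: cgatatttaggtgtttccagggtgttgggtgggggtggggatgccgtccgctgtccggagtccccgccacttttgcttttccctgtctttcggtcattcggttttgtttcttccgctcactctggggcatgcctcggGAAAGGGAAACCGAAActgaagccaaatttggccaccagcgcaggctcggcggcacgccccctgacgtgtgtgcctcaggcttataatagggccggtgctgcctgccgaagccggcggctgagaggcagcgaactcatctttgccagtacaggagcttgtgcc
IFITM3, chr11:320811-321110, minus strand: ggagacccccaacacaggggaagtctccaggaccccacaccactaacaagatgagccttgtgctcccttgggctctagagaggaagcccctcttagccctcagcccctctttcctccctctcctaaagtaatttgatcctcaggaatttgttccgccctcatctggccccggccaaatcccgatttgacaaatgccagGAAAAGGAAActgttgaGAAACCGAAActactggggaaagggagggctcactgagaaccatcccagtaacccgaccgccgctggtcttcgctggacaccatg
BST2, chr19:17405581-17405880, minus strand: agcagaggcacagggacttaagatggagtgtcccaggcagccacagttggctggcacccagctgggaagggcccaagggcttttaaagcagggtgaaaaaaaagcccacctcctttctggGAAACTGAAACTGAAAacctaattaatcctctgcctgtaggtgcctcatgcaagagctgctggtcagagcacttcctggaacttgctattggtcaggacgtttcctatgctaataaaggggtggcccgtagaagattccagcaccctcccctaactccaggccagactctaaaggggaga

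A window was available for 27 of the 36 genes, and for IFNAR2, IRF7, IFIT2, OAS2, OASL, MX2, IFITM2, USP18 and TRIM22 none was used here. The motif was in a window of 18 of these 27 genes (66.7%), against 4.38% of all 27305 genes with a window. Counted by window, 22 of 37 (59.5%) held it, against 3.57% of all 35116 windows. It was present in 8 of the 11 genes with a window that were called higher with geniposide in HepG2-labelled cells, in 2 of the 4 called lower, in 4 of the 7 without a call and in 4 of the 5 not tested. Both directions thus included genes with the motif and genes without it. Calls of BST2, lower with the motif, and of SP100, higher without it, ended under several alternatives, as given below. OAS1, IRF9 and SP100 were higher without a match in their windows, and SAMHD1 and IFI35 were lower without a match. Only exact matches within the windows were counted, so a gene without a match may hold the element elsewhere or in another form. First bases of the matches lay between positions -196 and 11 relative to a start.

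**Figure D2:**
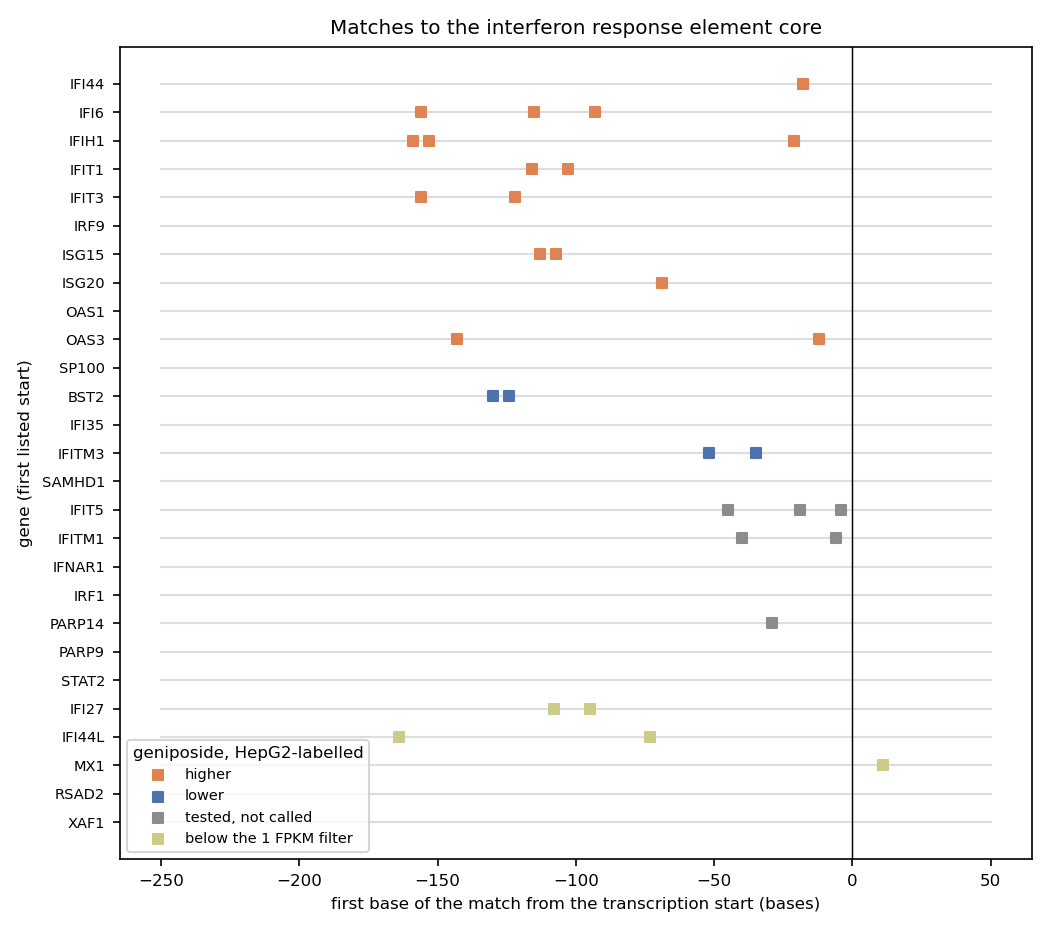
Positions of the motif matches (squares) in the RefSeq promoter windows of the members that have one (rows, first listed start), as distance from the annotated start in bases, coloured by the call with geniposide in HepG2-labelled cells. IFI6, IFIH1 and IFIT5 have 3 matches each in the window drawn, and the matches of IFITM3 and BST2, both lower with geniposide, lie before the start as those of IFI6 do.

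Tests compared geniposide-treated with untreated libraries on log2(FPKM + 1) in 1 limma model of the 4 groups, with p-values adjusted over the 15518 genes that had at least 1 FPKM in at least 3 libraries. In this scale a change of a gene near 0 FPKM is understated. Of the 36 members 27 passed that filter, and IFNAR2, OAS2, MX1, MX2, RSAD2, IFI27, IFI44L, TRIM22 and XAF1 did not. IRF9 and ISG20 passed only through the geniposide-treated HepG2-labelled libraries, and IFI44 through those and 1 untreated one, so their place among the tested genes already reflects a high level there. In HepG2-labelled cells 14 of the 27 were called higher, where 21% of all tested genes were, and 6 were called lower, close to the 21.5% of all tested genes. In Huh7-labelled cells 2 of the 27 were called higher, against 16.4% of all tested genes, and 1 was called lower, against 18.1%. Without the Huh7-labelled library that stood apart, 3 were higher and 4 lower in Huh7-labelled cells, with IFITM1 higher and IFITM2, IFIT5 and SAMHD1 lower in addition. In that fit 22.2% of all tested genes were higher and 23.8% lower. Of the 27, 14 passed the filter without any Huh7-labelled library at 1 FPKM and could hardly be called there. So nothing is read from the Huh7-labelled counts being below the share of all genes. Without any filter, among 35698 genes, 17 of all 36 members were higher in HepG2-labelled cells, against 8.82% of those genes, and 5 were lower, against 8.61%, and the median change of all 36 was 0.16, against 0 for all genes. The same median was 0 in Huh7-labelled cells, against 0 for all genes. Of all 35698 genes only 15518 passed the filter, against 27 of the 36 members, so the shares without it are not like for like.

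**Figure D3:**
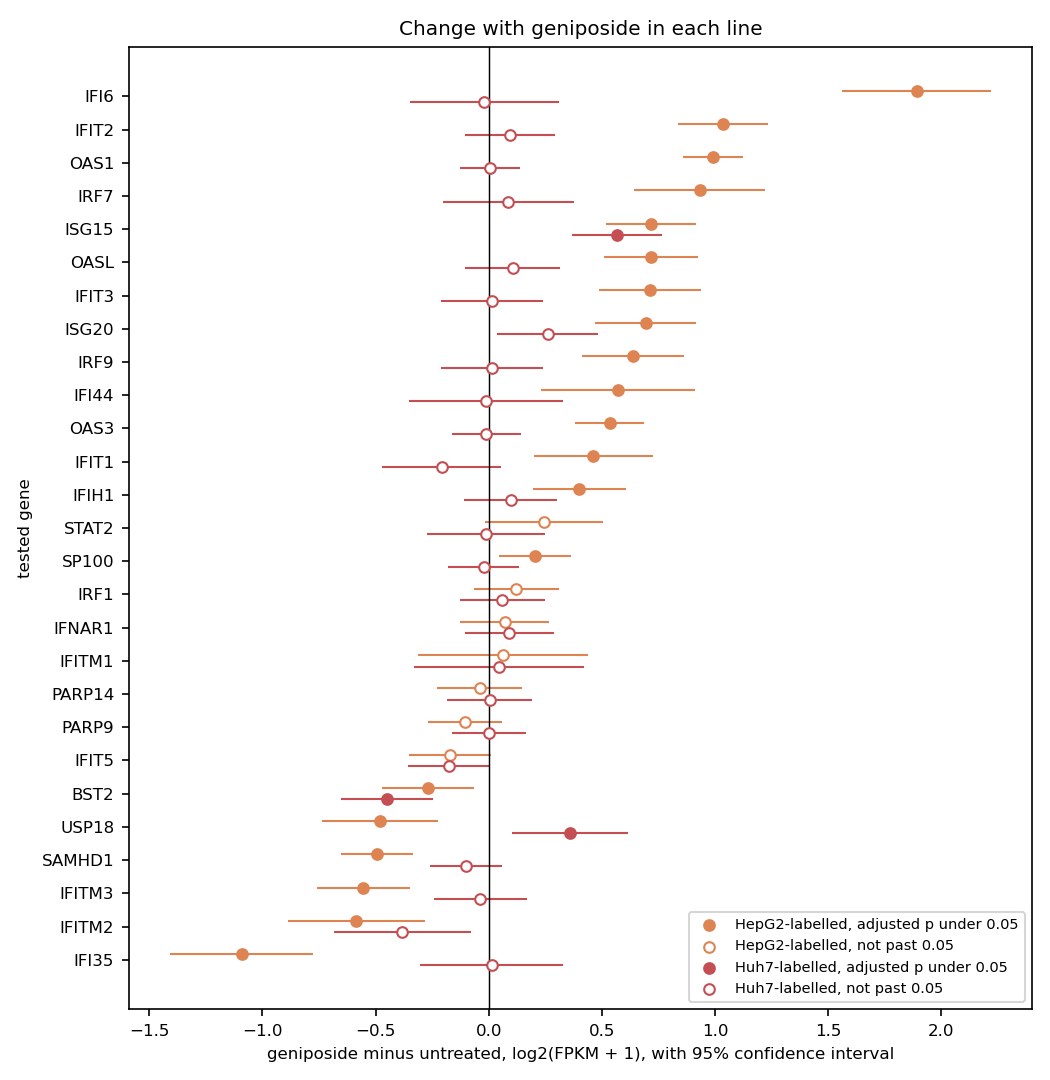
Change with geniposide for the 27 tested members (rows, ordered by the change in HepG2-labelled cells), as difference in log2(FPKM + 1) with its 95% confidence interval, in HepG2-labelled (orange) and Huh7-labelled (red) cells. Filled points passed an adjusted p of 0.05. HepG2-labelled values run from -1.09 for IFI35 to 1.89 for IFI6, and filled points in Huh7-labelled cells are ISG15, USP18 and BST2.

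The scaling of the libraries moves the balance of calls over all genes, though not the calls just given for HepG2-labelled cells, other than those of BST2 and SP100. Of all genes called in Huh7-labelled cells 47.5% were higher, against 61.6% when the values were rescaled to TPM and 60.5% with voom on the recovered fragments. For the untreated lines 50.2% of the called genes were higher in HepG2-labelled cells, against 36.6% under both alternatives, and there the median of all genes moved to -0.27 with TPM and -0.29 with voom. For the difference between the lines' responses 50.8% of the called genes were positive, against 40.4% with voom.

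The receptor chains overlapped between treated and untreated libraries in each line. IFNAR1 had 14.0, 13.2 and 12.3 FPKM in geniposide-treated and 12.01, 12.4 and 13.0 FPKM in untreated HepG2-labelled libraries. In Huh7-labelled libraries it had 7.66, 7.61 and 9.98 FPKM with geniposide and 8.01, 7.58 and 7.77 FPKM without. The changes of IFNAR1 in HepG2-labelled and Huh7-labelled cells were 0.07 ± 0.089 (limma adjusted p = 0.585) and 0.091 ± 0.089 (adjusted p = 0.474). IFNAR2, the other chain, stayed below 1 FPKM in every library, with 0.934, 0.536 and 0.388 FPKM in treated and 0.583, 0.585 and 0.482 FPKM in untreated HepG2-labelled libraries. Its levels in Huh7-labelled libraries were 0.348, 0.198 and 0.221 FPKM with geniposide and 0.338, 0.386 and 0.458 FPKM without, and it was too low to enter the test.

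Among the transcription factors, IRF7, which drives interferon genes and is itself interferon-induced, and IRF9, the DNA-binding partner of STAT2, were higher with geniposide in HepG2-labelled cells. IRF7 (chr11:612553-615999) had 6.48, 6.07 and 5.10 FPKM in treated and 2.17, 3.08 and 2.59 FPKM in untreated HepG2-labelled libraries. Its lowest treated value exceeded its highest untreated one, with a change of 0.93 ± 0.13 (adjusted p = 0.000223). Levels of IRF7 in Huh7-labelled libraries were 0.816, 0.760 and 0.348 FPKM with geniposide and 0.505, 0.588 and 0.505 FPKM without, which overlapped (change 0.087 ± 0.13, adjusted p = 0.660). IRF9 had 1.03, 1.15 and 1.08 FPKM in treated and 0.443, 0.191 and 0.403 FPKM in untreated HepG2-labelled libraries, a change of 0.64 ± 0.10 (adjusted p = 0.000530). Its Huh7-labelled levels were 0.240, 0.256 and 0.383 FPKM with geniposide and 0.274, 0.376 and 0.191 FPKM without, as low as in untreated HepG2-labelled cells. In the model without a filter, where the choice of tested genes does not depend on the treated libraries, IRF9 had an adjusted p of 0.000913.

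STAT2, which carries the receptor's signal, did not pass the test. It had 9.44, 9.49 and 8.99 FPKM in treated and 7.36, 8.44 and 7.34 FPKM in untreated HepG2-labelled libraries, which did not overlap (change 0.24 ± 0.12, adjusted p = 0.125). In Huh7-labelled libraries STAT2 had 6.81, 7.39 and 4.73 FPKM with geniposide, the lowest in the library that stood apart, and 6.37, 6.06 and 6.41 FPKM without. Without that library the change in HepG2-labelled cells had an adjusted p of 0.00382, because the 4 groups share their estimate of the spread. IRF1, a transcription factor induced by both interferon types, ranged from 0.9755 to 1.73 FPKM over the 12 libraries and its treated and untreated values overlapped in each line.

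IFIH1, the MDA5 sensor of long double-stranded RNA, was higher with geniposide in HepG2-labelled cells. It had 1.82, 2.21 and 1.69 FPKM in treated and 1.28, 1.10 and 1.22 FPKM in untreated HepG2-labelled libraries, a change of 0.40 ± 0.093 (adjusted p = 0.00530, 0.0784 with a pseudocount of 0.1 FPKM). Its level in Huh7-labelled libraries was at most 0.210 FPKM, too low to show a change of similar size.

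The IFIT genes encode proteins that bind viral RNA and lie near each other on chromosome 10 (build hg38), where IFIT1, IFIT2 and IFIT3 are within the span of LIPA on the opposite strand. The libraries do not mark strand, and LIPA averaged 18.5 FPKM in treated and 20.3 FPKM in untreated HepG2-labelled cells. IFIT2 (chr10:89283694-89309276) had 4.49, 4.06 and 3.54 FPKM in treated and 1.38, 1.48 and 1.49 FPKM in untreated HepG2-labelled libraries, 2.78 times as much by the means. This was a change of 1.03 ± 0.09 (adjusted p = 9.57e-06) without overlap. IFIT3 (chr10:89327894-89340971) had 3.68, 4.07 and 3.77 FPKM in treated and 1.83, 2.22 and 1.82 FPKM in untreated HepG2-labelled libraries (change 0.71 ± 0.10, adjusted p = 0.000262). IFIT1 (chr10:89392546-89406486), whose protein recognises RNA that lacks a methylated cap, had 5.56, 5.22 and 4.89 FPKM in treated and 3.40, 3.53 and 3.63 FPKM in untreated HepG2-labelled libraries. Its change was smaller, 0.46 ± 0.12 (adjusted p = 0.00935, 0.0665 with a pseudocount of 0.1 FPKM).

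IFIT5, at the end of the same cluster, did not share this direction. It had 4.29, 4.36 and 4.28 FPKM in treated and 5.02, 5.30 and 4.64 FPKM in untreated HepG2-labelled libraries, with every treated value below every untreated one but no call (change -0.17 ± 0.081, adjusted p = 0.117). Its window holds 3 matches to the motif, as many as that of IFI6. In Huh7-labelled libraries the 4 IFIT genes ranged from 0.274 FPKM for IFIT3 to 2.44 FPKM for IFIT5, and no IFIT gene was called there with geniposide (0 of 4 at an unadjusted p under 0.05 with limma, and 0 of 4 with voom). IFIT1 in these cells had 1.19, 1.27 and 0.571 FPKM with geniposide, the lowest again in the library that stood apart, and 1.26, 1.34 and 1.27 FPKM without. With quantile normalization it was called lower there (-0.32, adjusted p = 0.0324). IFIT5 had an adjusted p of 0.0212 in Huh7-labelled cells without that library (change -0.25).

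The OAS genes encode oligoadenylate synthetases, which sense double-stranded RNA and make a messenger that leads to RNA decay, and OASL encodes a relative without that activity. OAS1 (chr12:112906777-112933222) had 10.8, 12.003 and 11.3 FPKM in treated and 5.29, 4.91 and 5.49 FPKM in untreated HepG2-labelled libraries. The treated values were 2.17 times the untreated ones by the means and did not overlap them, and its adjusted p was the smallest of the members (change 0.99 ± 0.06, adjusted p = 9.78e-07). In Huh7-labelled libraries OAS1 had 1 fragment in the 3 treated libraries together and 0 in the untreated ones. OAS3 (chr12:112938352-112973249), next to it, had 19.6, 19.3 and 16.3 FPKM in treated and 12.7, 12.4 and 11.99 FPKM in untreated HepG2-labelled libraries, a change of 0.53 ± 0.069 (adjusted p = 0.000129). It had 0 fragments in the treated and 3 in the untreated Huh7-labelled libraries.

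OAS2, the third gene of that cluster, was below the filter, with 0.262, 0.192 and 0.214 FPKM in treated and 0.0537, 0.0316 and 0.0554 FPKM in untreated HepG2-labelled libraries. These rest on 62 and 13 fragments, and the model without a filter gave a change of 0.22 ± 0.024 (adjusted p = 0.000138). It had 0 fragments in all 6 Huh7-labelled libraries. OASL had 3.71, 3.95 and 3.67 FPKM in treated and 1.99, 2.12 and 1.64 FPKM in untreated HepG2-labelled libraries, which did not overlap (change 0.72 ± 0.095, adjusted p = 0.000149). Its levels of 0.381, 0.162 and 0.260 FPKM with geniposide and 0.279, 0.135 and 0.120 FPKM without in Huh7-labelled libraries did overlap.

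**Figure D4:**
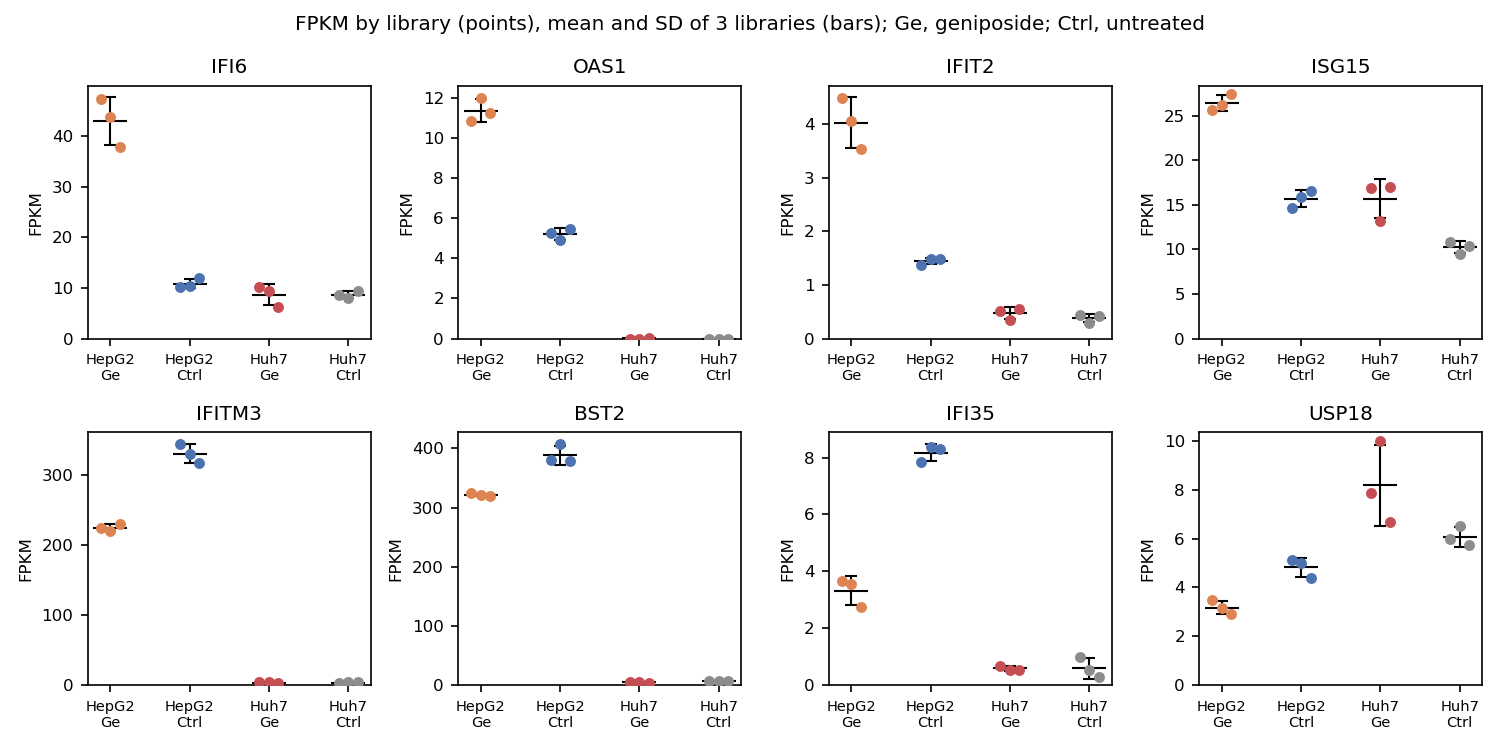
FPKM in each library (points) with the mean and SD of 3 libraries (bars) for 8 members in the 4 groups, each panel with its own axis from 0. Geniposide-treated HepG2-labelled libraries lie above the untreated ones in the panels of IFI6, OAS1, IFIT2 and ISG15 and below them in those of IFITM3, BST2, IFI35 and USP18, while USP18 in treated Huh7-labelled libraries (6.70 to 9.99 FPKM) lies above the untreated ones (5.73 to 6.53 FPKM).

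MX1 and MX2, the GTPases that block viral nucleocapsids and are often used as readouts of interferon, stayed near 0. MX1 had 0.143, 0.197 and 0.156 FPKM in treated and 0.164, 0.329 and 0.113 FPKM in untreated HepG2-labelled libraries, which overlapped, and 0 fragments in all 6 Huh7-labelled libraries. MX2 had at most 0.0703 FPKM in any library, with 25 fragments in treated and 7 in untreated HepG2-labelled libraries (change without the filter 0.044 ± 0.019, adjusted p = 0.174). RSAD2, the viperin enzyme that makes a chain-terminating nucleotide and is another common readout, had at most 0.106 FPKM. It had 16 fragments in treated and 4 in untreated HepG2-labelled libraries, whose values overlapped (change without the filter 0.075 ± 0.028, adjusted p = 0.106). These 3 genes, known as strongly induced by interferon, thus stayed at or below 0.329 FPKM in all 12 libraries.

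In HepG2-labelled cells the membrane effectors were the most abundant members, and IFITM2, IFITM3 and BST2 were lower with geniposide. IFITM1, IFITM2 and IFITM3 encode small membrane proteins that block the entry of enveloped viruses, and BST2 encodes tetherin, which holds budding virions on the cell. IFITM3 had 225, 220.5 and 230.0 FPKM in treated and 344, 331 and 318 FPKM in untreated HepG2-labelled libraries, 0.680 times as much by the means (change -0.55 ± 0.093, adjusted p = 0.000726). IFITM2 (chr11:307631-315272) had 84.4, 79.6 and 90.6 FPKM in treated and 131, 131 and 121 FPKM in untreated HepG2-labelled libraries (change -0.58 ± 0.14, adjusted p = 0.00551). Neither gene's groups overlapped. IFITM1 had 78.8, 82.6 and 79.7 FPKM in treated and 78.4, 78.1 and 74.4 FPKM in untreated HepG2-labelled libraries and was not called (change 0.062 ± 0.17, adjusted p = 0.829). The 3 genes are similar in sequence, and the annotated span of IFITM1 (chr11:313506-315272) lies wholly within that of IFITM2 on the same strand, so how fragments were divided between them is uncertain.

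BST2 (chr19:17402939-17405648) had 324, 321 and 319.5 FPKM in treated and 379.8, 407 and 378 FPKM in untreated HepG2-labelled libraries, without overlap. Its change of -0.27 ± 0.092 had an adjusted p of 0.0359, and the call ended when any 1 of the 6 HepG2-labelled libraries was left out (adjusted p between 0.0629 and 0.115) and with TPM (0.153). In Huh7-labelled libraries BST2 had 4.93, 5.15 and 3.61 FPKM with geniposide and 6.34, 6.42 and 6.85 FPKM without. The lowest value was in the library that stood apart, yet all treated values lay below all untreated ones (change -0.45 ± 0.092, adjusted p = 0.00359, 0.0601 when the 2 Huh7-labelled groups were fitted alone).

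IFITM2 in Huh7-labelled libraries had 2.67, 4.66 and 4.15 FPKM with geniposide and 5.13, 4.66 and 5.83 FPKM without, and narrowly missed the threshold (change -0.38 ± 0.14, adjusted p = 0.0523). It was called without the second treated library (-0.51, adjusted p = 0.0162) and without the third (-0.44, adjusted p = 0.0388). IFITM1 there had 9.92, 10.1 and 5.33 FPKM with geniposide and 8.28, 7.87 and 7.49 FPKM without (change 0.044 ± 0.17, adjusted p = 0.884). The third treated library was the low one, and without it IFITM1 was called higher (0.31, adjusted p = 0.000281). IFITM3 had 3.78, 3.98 and 2.71 FPKM with geniposide and 3.38, 3.66 and 3.67 FPKM without, which overlapped. At such levels antisense genes weigh more: AC136475.1, opposite to IFITM3, averaged 1.81 FPKM in treated and 1.04 FPKM in untreated Huh7-labelled cells, and AC136475.2, opposite to IFITM2, averaged 4.53 FPKM in treated and 2.05 FPKM in untreated ones. Their part in the IFITM values was not tested.

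ISG15, a ubiquitin-like protein that is attached to other proteins during the response, was the member called higher in both lines under every alternative tried. It had 25.7, 26.2 and 27.4 FPKM in treated and 14.6, 15.9 and 16.5 FPKM in untreated HepG2-labelled libraries, a ratio of 1.68 (change 0.72 ± 0.09, adjusted p = 0.000112). In Huh7-labelled libraries it had 16.9, 13.2 and 17.03 FPKM with geniposide and 10.8, 9.47 and 10.4 FPKM without, a ratio of 1.54 (change 0.57 ± 0.09, adjusted p = 0.000858). The groups did not overlap in either line. An antisense gene within its annotated span, AL645608.1, averaged 3.83 FPKM in treated and 1.01 FPKM in untreated HepG2-labelled cells, and 7.44 FPKM in treated and 5.68 FPKM in untreated Huh7-labelled cells. Reads of the pair cannot be told apart where they overlap, and its part in the result was not tested.

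USP18, the protease that removes ISG15 from proteins and damps receptor signalling, moved in opposite directions in the lines. It had 3.47, 3.15 and 2.91 FPKM in treated and 5.11, 4.98 and 4.37 FPKM in untreated HepG2-labelled libraries (change -0.48 ± 0.12, adjusted p = 0.00658). In Huh7-labelled libraries it had 7.85, 9.99 and 6.70 FPKM with geniposide and 5.99, 6.53 and 5.73 FPKM without (change 0.36 ± 0.12, adjusted p = 0.0337). The treated values lay below the untreated ones in HepG2-labelled cells and above them in Huh7-labelled cells. The Huh7 call ended without the first (adjusted p = 0.0572) or second (0.0970) treated library, without the first (0.0856) or the third (0.105) untreated one, without the filter (0.0721) and with the 2 groups fitted alone (0.135). USP41, a near-identical copy of USP18, reached at most 0.372 FPKM.

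Of the enzymes that act on nucleic acids or nucleotides, the exonuclease ISG20 was higher and SAMHD1, which breaks down deoxynucleotides, was lower with geniposide in HepG2-labelled cells. ISG20 had 1.42, 1.25 and 1.82 FPKM in treated and 0.493, 0.546 and 0.575 FPKM in untreated HepG2-labelled libraries (change 0.69 ± 0.10, adjusted p = 0.000279, 0.000732 without the filter). In Huh7-labelled libraries ISG20 had 0.320, 0.442 and 0.541 FPKM with geniposide and 0.188, 0.169 and 0.230 FPKM without. These did not overlap but missed the threshold (change 0.26 ± 0.10, adjusted p = 0.0682), and passed it with TPM (0.0106), with voom (0.00803), with a pseudocount of 0.1 FPKM (0.00992) and without the first treated library (0.0487). SAMHD1 had 2.61, 2.76 and 2.496 FPKM in treated and 4.13, 4.04 and 4.11 FPKM in untreated HepG2-labelled libraries (change -0.49 ± 0.072, adjusted p = 0.000296). Its values of 4.53, 4.28 and 5.43 FPKM with geniposide and 5.29, 5.20 and 4.94 FPKM without in Huh7-labelled libraries overlapped, and without the third treated library it was called lower there (-0.18, adjusted p = 0.0126).

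The IFI genes, named for their induction, held both ends of the range. IFI6 (chr1:27666061-27672218), a mitochondrial and endoplasmic reticulum membrane protein that restricts flaviviruses, had 47.4, 43.8 and 37.9 FPKM in treated and 10.3, 10.4 and 11.96 FPKM in untreated HepG2-labelled libraries. This was 3.96 times as much by the means, the largest log2 change of the tested members (1.89 ± 0.15, adjusted p = 4.69e-06). In Huh7-labelled libraries IFI6 had 10.3, 9.50 and 6.28 FPKM with geniposide and 8.54, 8.03 and 9.42 FPKM without, and its change there was -0.02 ± 0.15 (adjusted p = 0.950). It averaged 10.9 ± 0.957 FPKM in untreated HepG2-labelled and 8.67 ± 0.703 FPKM in untreated Huh7-labelled cells (SD, n = 3 each), and the 95% confidence interval of the change in Huh7-labelled cells ran from -0.35 to 0.31. IFI35, a partner of NMI in innate signalling, had 3.67, 3.54 and 2.75 FPKM in treated and 7.84, 8.38 and 8.31 FPKM in untreated HepG2-labelled libraries (change -1.09 ± 0.14, adjusted p = 0.000144). It was the member that fell most, and its Huh7-labelled levels of 0.679, 0.520 and 0.545 FPKM with geniposide and 0.995, 0.512 and 0.275 FPKM without overlapped.

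IFI44 had 1.71, 1.77 and 1.35 FPKM in treated and 0.462, 0.582 and 1.33 FPKM in untreated HepG2-labelled libraries, where the third untreated library was almost at the treated level (change 0.57 ± 0.15, adjusted p = 0.0118, 0.0607 with the 2 HepG2-labelled groups fitted alone). It had 0 fragments in treated and 1 in untreated Huh7-labelled libraries. IFI44L was below the filter, with 0.214, 0.338 and 0.225 FPKM in treated and 0.0328, 0.0193 and 0.0203 FPKM in untreated HepG2-labelled libraries, 117 against 11 fragments in the 3 libraries of each group (change without the filter 0.30 ± 0.04, adjusted p = 0.000551). IFI27, a mitochondrial protein, had 0.824, 0.919 and 0.739 FPKM in treated and 0.227, 0.0635 and 0.151 FPKM in untreated HepG2-labelled libraries (change without the filter 0.67 ± 0.11, adjusted p = 0.00170). In Huh7-labelled libraries IFI27 ranged from 0.672 to 1.10 FPKM with geniposide and from 0.699 to 1.002 FPKM without. Treated HepG2-labelled cells were thus at the level that Huh7-labelled cells had with or without the drug.

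The remaining members are the nuclear body protein SP100, the ADP-ribosyltransferases PARP9 and PARP14, the ubiquitin ligase TRIM22 and the apoptosis-associated factor XAF1. SP100 had 1.98, 2.08 and 2.08 FPKM in treated and 1.55, 1.59 and 1.81 FPKM in untreated HepG2-labelled libraries (change 0.20 ± 0.071, adjusted p = 0.0394). Its call ended under 11 of 20 alternatives, among them leaving out any treated HepG2-labelled library (0.0708 to 0.104), the first (0.128) or second (0.117) untreated one, or the second untreated Huh7-labelled one (0.0505). PARP9 had 1.94, 1.86 and 1.72 FPKM in treated and 2.11, 2.19 and 1.86 FPKM in untreated HepG2-labelled libraries, and PARP14 had 3.06, 3.17 and 2.39 FPKM in treated and 2.86, 2.98 and 3.06 FPKM in untreated ones. Both overlapped and neither was called (adjusted p = 0.288 and 0.766). All 3 had at most 0.0366 FPKM in Huh7-labelled libraries. TRIM22 reached at most 0.152 FPKM, in a treated HepG2-labelled library (change without the filter 0.097 ± 0.028, adjusted p = 0.0394), and overlaps TRIM5 on the opposite strand. XAF1 had 3 fragments in 1 treated HepG2-labelled library and 0 in the other 11 libraries.

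Summed over the 36 genes, treated HepG2-labelled libraries held 894, 882 and 883 FPKM and untreated ones 1040, 1058 and 1002 FPKM, without overlap. IFITM1, IFITM2, IFITM3 and BST2 make up most of this sum. Without these 4, a choice made after their values were seen, the other 32 genes summed to 182, 178 and 163 FPKM in treated and 107, 111 and 111 FPKM in untreated HepG2-labelled libraries, the opposite order. In Huh7-labelled libraries the 36 genes summed to 84.1, 84.0 and 74.5 FPKM with geniposide and 77.3, 74.0 and 76.4 FPKM without, which overlapped. Without the same 4 genes these sums were 62.8, 60.1 and 58.7 FPKM with geniposide and 54.2, 51.4 and 52.5 FPKM without, and the treated values lay above the untreated ones. Single genes weigh heavily in these sums. IFI6 averaged 43.0 FPKM in treated and 10.9 FPKM in untreated HepG2-labelled cells. In Huh7-labelled cells ISG15 averaged 15.7 FPKM with geniposide and 10.2 FPKM without, and USP18 8.18 and 6.08 FPKM. Among the 32 genes the others moved by less, in both directions.

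Whether the lines differed in their response was tested as the change in HepG2-labelled cells minus the change in Huh7-labelled cells. Of the 27 tested members the difference was positive and called for 10, against 14.1% of all tested genes, and negative and called for 4, against 13.7%. The difference was 1.91 ± 0.21 for IFI6 (adjusted p = 0.000157) and 0.94 ± 0.13 for IFIT2 (adjusted p = 0.000559). It was 0.67 ± 0.17 for IFIT1 (adjusted p = 0.0141) and 0.62 ± 0.14 for IRF9 (adjusted p = 0.00972). These 4 kept the call under every alternative in which they could be tested. The calls of OAS1, OAS3, OASL, IRF7, IFIT3 and ISG20 ended with voom on the recovered fragments (adjusted p 0.124 to 0.644), where the fold itself is compared. The differences of IRF7 (0.94), IFIT3 (0.87) and OAS3 (1.91) were not smaller there than on the log2(FPKM + 1) scale, and those of OAS1 (0.64), OASL (0.34) and ISG20 (0.29) were smaller. Those of IRF7, IFIT3, OASL and ISG20 also ended with a pseudocount of 0.1 FPKM (adjusted p 0.0664 to 0.298), and that of ISG20 (difference 0.43 ± 0.14, adjusted p = 0.0435) held under only 3 of 16 alternatives. For OAS1 and OAS3, at 0 to 3 fragments in each Huh7-labelled group, no fold could be measured in that line. IRF7, IRF9, IFIT2, IFIT3, OASL and ISG20 also had no Huh7-labelled library at 1 FPKM and entered the test only through HepG2-labelled ones. At such levels a change is understated on the log2(FPKM + 1) scale, so nothing is read from the share of positive calls.

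On the negative side, USP18 had a difference of -0.84 ± 0.16 (adjusted p = 0.00402), from opposite changes in the lines. IFI35 had -1.10 ± 0.20 (adjusted p = 0.00292), IFITM3 had -0.52 ± 0.13 (adjusted p = 0.0149) and SAMHD1 had -0.39 ± 0.10 (adjusted p = 0.0166). These 4 calls held under every alternative. IFI35 had no Huh7-labelled library at 1 FPKM. ISG15 had a difference of 0.15 ± 0.13, with a 95% confidence interval from -0.13 to 0.43 (adjusted p = 0.417), and BST2 one of 0.18 ± 0.13, with an interval from -0.11 to 0.47 (adjusted p = 0.335). For IFITM1 the difference of 0.02 turned to -0.25 (adjusted p = 0.00706) when the Huh7-labelled library that stood apart was left out.

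The untreated lines were compared in the same model. Of the 27 tested members 21 were higher in untreated HepG2-labelled than in untreated Huh7-labelled cells, against 36.1% of all tested genes, and USP18 and SAMHD1 were lower, against 35.8%. Of the 27, 14 passed the filter without any Huh7-labelled library at 1 FPKM, only through HepG2-labelled libraries, so nothing is read from that share. Shares without the filter are not like for like, as 27 of the 36 members but only 15518 of all 35698 genes passed it. Without it 22 of all 36 were higher, against 17.7% of all genes, and 2 were lower, against 20.5%. Of these 2, IFI27 was at 0.147 ± 0.0818 FPKM in untreated HepG2-labelled and 0.815 ± 0.163 FPKM in untreated Huh7-labelled cells (SD, n = 3 each), without overlap, and had the largest negative difference (-0.66 ± 0.11, adjusted p = 0.000640). IFITM3 averaged 331 ± 13.0 FPKM in untreated HepG2-labelled and 3.57 ± 0.163 FPKM in untreated Huh7-labelled cells (SD, n = 3 each), 92.7 times as much, with a log2 difference of 6.18 ± 0.093. BST2 averaged 388 ± 16.1 FPKM in untreated HepG2-labelled and 6.54 ± 0.273 FPKM in untreated Huh7-labelled cells, 59.3 times as much (5.69 ± 0.092). The ratios were 24.5 for IFITM2 (4.38 ± 0.14) and 9.76 for IFITM1 (3.13 ± 0.17), and the adjusted p-values of these genes were at most 2.15e-08. OAS3 had 4540 fragments in untreated HepG2-labelled and 3 in untreated Huh7-labelled libraries, with a log2 difference of 3.73 ± 0.069 (adjusted p = 2.37e-12) that depends on the pseudocount.

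OAS1 had 1149 fragments in untreated HepG2-labelled and 0 in untreated Huh7-labelled libraries, at least 146-fold higher when 0 is set to the floor of 3 fragments per library. On the same floor MX1 was at least 9.80-fold higher, with 78 fragments against 0. PARP14, PARP9 and SP100, at 1, 4 and 15 fragments in untreated Huh7-labelled libraries, had 1383, 817 and 923 in untreated HepG2-labelled ones. Receptors and factors differed less: IFNAR1 averaged 12.5 ± 0.483 FPKM in untreated HepG2-labelled and 7.79 ± 0.214 FPKM in untreated Huh7-labelled cells (SD, n = 3 each). STAT2, IRF1, IRF9 and IFI6 were not called (adjusted p between 0.0711 for STAT2 and 0.559 for IRF9), although the values of STAT2, IRF1 and IFI6 were higher in untreated HepG2-labelled libraries without overlap. Fitting the 2 untreated groups alone called STAT2 (0.00610) and IFI6 (0.0106), as did leaving out the Huh7-labelled library that stood apart (0.00156 and 0.0118), and STAT2 was also called without the second treated Huh7-labelled one (0.0428). Quantile normalization called IRF1 (0.0116) and IRF9 (0.0229). SAMHD1 averaged 4.09 ± 0.04997 FPKM in untreated HepG2-labelled and 5.14 ± 0.180 FPKM in untreated Huh7-labelled cells (log2 difference -0.27 ± 0.072, adjusted p = 0.00568). USP18 was at 4.82 ± 0.397 FPKM in untreated HepG2-labelled and 6.08 ± 0.408 FPKM in untreated Huh7-labelled cells (-0.28 ± 0.12, adjusted p = 0.0465), a call that ended without any 1 of 10 libraries (adjusted p 0.0527 to 0.149). Only leaving out the second or the third treated Huh7-labelled library kept it.

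**Figure D5:**
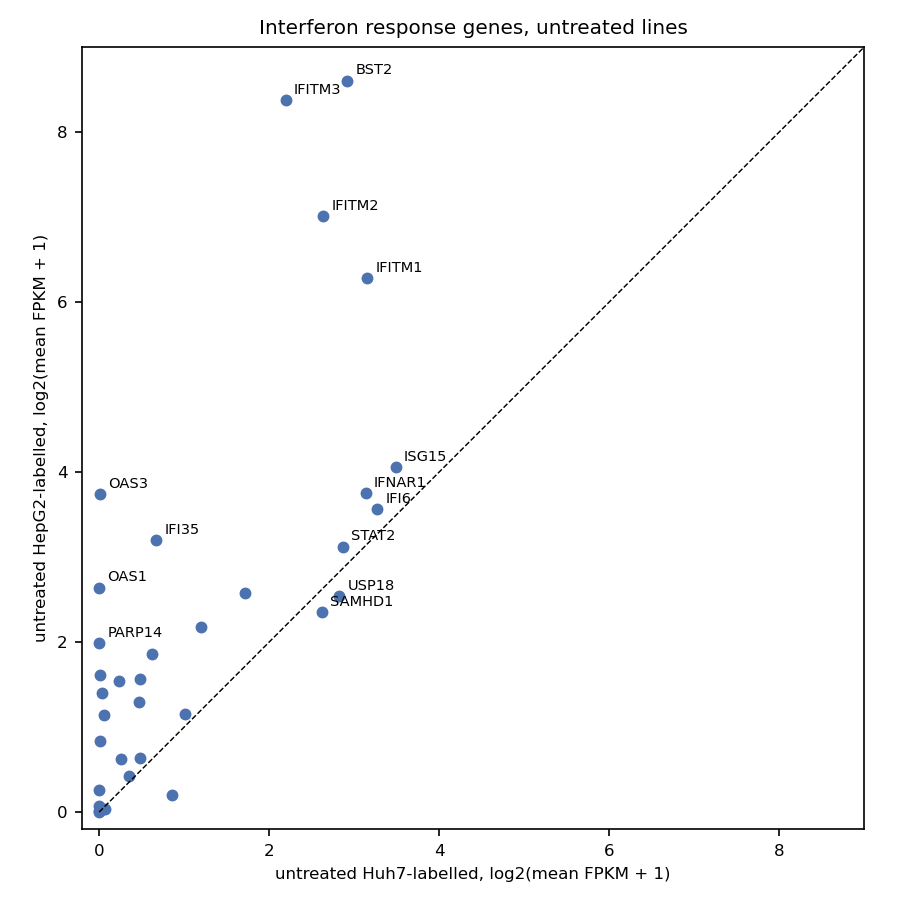
Mean level of the 36 genes in untreated HepG2-labelled cells (vertical axis) against untreated Huh7-labelled cells (horizontal axis), both as log2 of the mean FPKM of 3 libraries + 1, with equality as a dashed line. BST2, IFITM3, IFITM2 and IFITM1 lie far above the line, OAS3 and OAS1 lie at 0 on the horizontal axis, and IFI6, STAT2, USP18 and SAMHD1 lie near the line.

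Genes around the response were taken from lists of pathway members. The lists were of interferon ligands, receptor and JAK-STAT signalling, nucleic acid sensing, negative regulators and other interferon-stimulated genes. Of 21 interferon ligands 13 were at 0 in all 12 libraries and 1, IFNE, an epithelial type I interferon, entered the test. IFNE had 0.742, 1.20 and 1.13 FPKM in treated and 1.003, 0.447 and 0.330 FPKM in untreated HepG2-labelled libraries, which overlapped (adjusted p = 0.0858). The ligands together summed to 0.901 to 1.43 FPKM in treated and 0.523 to 1.16 FPKM in untreated HepG2-labelled libraries. Of 11 signalling genes 10 were tested, and 1 was higher and 1 lower in HepG2-labelled cells, with 4 higher and 2 lower in Huh7-labelled cells. As shares of the list these were 10% and 10% in HepG2-labelled cells, where 21% and 21.5% of all tested genes were higher and lower, and 40% and 20% in Huh7-labelled cells, against 16.4% and 18.1%. The median changes of the 10 were 0.076 in HepG2-labelled and 0.18 in Huh7-labelled cells. STAT3, a relative of STAT2 that answers to cytokines, was higher in both lines: its change was 0.21 ± 0.049 in HepG2-labelled cells (adjusted p = 0.00596) and 0.30 ± 0.049 in Huh7-labelled cells (adjusted p = 0.000899). KPNA1, a nuclear import receptor, was lower in both, with changes of -0.17 ± 0.063 in HepG2-labelled cells (adjusted p = 0.0451) and -0.56 ± 0.063 in Huh7-labelled cells (adjusted p = 0.000104). TYK2, a kinase of the receptor, rose in Huh7-labelled cells (0.31 ± 0.049, adjusted p = 0.000832) and did not pass in HepG2-labelled cells (-0.11 ± 0.049, adjusted p = 0.0972). CREBBP, a coactivator of STAT factors, also rose in Huh7-labelled cells (0.42 ± 0.09, adjusted p = 0.00466).

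Of 14 nucleic acid sensing genes 10 were tested. In HepG2-labelled cells 2 were higher and 4 lower, and the medians of the 10 and of all tested genes were -0.098 and 0.0024. In Huh7-labelled cells 1 was higher and 4 lower, with medians of -0.11 and 0. The lower calls were 40% of the list in each line, against 21.5% of all tested genes in HepG2-labelled and 18.1% in Huh7-labelled cells, and the higher calls 20% against 21% and 10% against 16.4%. IKBKE, a kinase that activates IRF3 and IRF7, had 1.42, 1.45 and 1.21 FPKM in treated and 3.12, 2.95 and 3.50 FPKM in untreated HepG2-labelled libraries (change -0.83 ± 0.12, adjusted p = 0.000352). The DNA-sensing adaptor TMEM173, also called STING, had 3.46, 3.92 and 3.72 FPKM in treated and 5.90, 6.06 and 7.16 FPKM in untreated HepG2-labelled libraries (change -0.65 ± 0.11, adjusted p = 0.00106). In Huh7-labelled libraries TMEM173 had 0.390, 0.696 and 0.224 FPKM with geniposide and 1.35, 1.56 and 1.27 FPKM without (change -0.75 ± 0.11, adjusted p = 0.000692). CGAS, the DNA sensor upstream of it, was lower in HepG2-labelled cells (-0.38 ± 0.085, adjusted p = 0.00388), and its Huh7-labelled level was at most 0.0647 FPKM. TRAF3, a ubiquitin ligase of the same pathway, was lower in both lines, with changes of -0.36 ± 0.069 in HepG2-labelled (adjusted p = 0.00173) and -0.43 ± 0.069 in Huh7-labelled cells (adjusted p = 0.000938). TBK1, the kinase of IRF3, was lower in Huh7-labelled cells (-0.45 ± 0.065, adjusted p = 0.000423), and was not called in HepG2-labelled cells (-0.15 ± 0.065, adjusted p = 0.0953).

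Of 11 negative regulators 10 were tested, with median changes of -0.12 in HepG2-labelled and -0.079 in Huh7-labelled cells. In HepG2-labelled cells 1 was higher, PIAS1, an inhibitor of STAT factors (0.20 ± 0.058, adjusted p = 0.0165), and 2 were lower. SOCS3, a feedback inhibitor of JAK kinases, had 11.7, 11.5 and 12.4 FPKM in treated and 16.1, 18.3 and 15.6 FPKM in untreated HepG2-labelled libraries (change -0.46 ± 0.093, adjusted p = 0.00249). PTPN11, a phosphatase, had 28.4, 27.1 and 27.5 FPKM in treated and 44.3, 42.5 and 41.4 FPKM in untreated HepG2-labelled libraries (change -0.61 ± 0.11, adjusted p = 0.000850). In Huh7-labelled cells CISH (-0.53 ± 0.12, adjusted p = 0.00510) and TRIM28 (-0.34 ± 0.095, adjusted p = 0.0183) were lower, and no other was called. The 2 lower calls were 20% of the list in each line, against 21.5% of all tested genes in HepG2-labelled and 18.1% in Huh7-labelled cells, a share near that of all genes.

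A further list held 78 interferon-stimulated genes that are not among the 36, of which 61 were tested. The list was chosen with earlier results of these data known. In HepG2-labelled cells 25 were higher and 13 lower with geniposide, with a median of 0.14, against 0.0024 for all tested genes. Without the filter the median of all 78 there was 0.074, against 0 for all genes. How many of the 61 passed the filter only through HepG2-labelled libraries was not counted. In Huh7-labelled cells 7 were higher and 13 lower, with a median of 0, against 0 for all tested genes. The higher calls were 41.0% of the 61 in HepG2-labelled cells, against 21% of all tested genes, and 11.5% in Huh7-labelled cells, against 16.4%. The lower calls were 21.3% in each line, near the 21.5% and 18.1% of all tested genes. Among the smallest p-values in HepG2-labelled cells were those of HLA-B, HLA-C and HLA-E, which present peptides to other cells. HLA-B had 202, 194 and 213 FPKM in treated and 58.0, 61.0 and 56.5 FPKM in untreated HepG2-labelled libraries (change 1.78 ± 0.063, adjusted p = 4.55e-08). HLA-C had 277, 272 and 274 FPKM in treated and 109, 113 and 109 FPKM in untreated ones (change 1.31 ± 0.052, adjusted p = 8.59e-08). The change of HLA-E was 1.01 ± 0.067 (adjusted p = 1.65e-06). In Huh7-labelled cells the smallest p-values belonged to ZC3HAV1, an antiviral RNA-binding protein that was lower (-1.31 ± 0.089, adjusted p = 5.3e-06), and to LAP3, APOBEC3B, both lower, and LAMP3, which was higher (0.56 ± 0.096, adjusted p = 0.00130). HLA genes are similar to each other, so the division of fragments among them is uncertain.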

How the data were processed

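Gene-level FPKM values of 12 poly(A)-selected RNA-seq libraries (random-hexamer priming without strand marking, per the labels' protocols) were used as deposited by the authors. Per the submitters' processing notes, CASAVA, fastp and build hg38 were used, while neither the aligner nor the counter is given in the sources used here. Gene lengths in the deposited table made FPKM times length a whole multiple of 1 fragment for every value (within 0.05), which gave the fragments per gene. All gene IDs were in GENCODE 29. Every per-sample column matched a label. The 36 members, the pathway lists and the tests were chosen with earlier results of these data known.

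FPKM + 1 was put on a log2 scale and fitted with limma 3.58.1 (R 4.3.3), with 1 mean per group over all 12 libraries (8 residual df), empirical Bayes variances with a trend on mean level, and two-sided Benjamini-Hochberg adjusted p-values at 0.05. Genes needed at least 1 FPKM in at least 3 libraries. The fit was tested on simulated data. Changes are geniposide minus untreated or HepG2-labelled minus Huh7-labelled, ± standard error. Alternatives were another pseudocount, no or a stricter filter, TPM, quantile and voom scaling, separate fits, a replicate block, no trend and leaving out each library. Named in full were members called in either line with geniposide, the receptor chains, STAT2, IRF9 and the 5 largest differences between untreated lines, and up to 4 called genes of each other list. Gene coordinates are on hg38, from GENCODE 29. Promoter windows came from RefSeq (GRCh38.p14). Some genes of the pathway and marker lists are not reported here.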

Additional observations from a re-analysis of the deposited data

Results flagged for a closer look

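For 14 members the change with geniposide differed between the lines by the test of the difference itself, HepG2-labelled minus Huh7-labelled, in the limma model on log2(FPKM + 1). The difference was positive for 10 of the 27 tested members, against 14.1% of all tested genes. It was 1.91 ± 0.21 for IFI6, 0.98 ± 0.085 for OAS1, 0.94 ± 0.13 for IFIT2, 0.85 ± 0.18 for IRF7 and 0.70 ± 0.14 for IFIT3. It was 0.67 ± 0.17 for IFIT1, 0.62 ± 0.14 for IRF9, 0.61 ± 0.13 for OASL, 0.54 ± 0.097 for OAS3 and 0.43 ± 0.14 for ISG20. The adjusted p-values of these 10 ran from 4.03e-05 for OAS1 to 0.0435 for ISG20. IRF7, IRF9, IFIT2, IFIT3, OAS1, OAS3, OASL and ISG20 had no Huh7-labelled library at 1 FPKM and entered the test only through HepG2-labelled ones. On this scale a change at such levels is understated, and near 0 FPKM, as for OAS1 and OAS3, it cannot show. Of these members, only IFIT2 and IRF9 kept the call with voom, where the fold itself is compared. Nothing is read from the share of positive calls.

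For the other 4 the difference was negative, 14.8% of the 27, near the 13.7% of all tested genes. It was -1.10 ± 0.20 for IFI35, -0.84 ± 0.16 for USP18, -0.52 ± 0.13 for IFITM3 and -0.39 ± 0.10 for SAMHD1, with adjusted p-values from 0.00292 for IFI35 to 0.0166 for SAMHD1. IFI35 had no Huh7-labelled library at 1 FPKM. USP18 was the member called in opposite directions in the lines, -0.48 ± 0.12 in HepG2-labelled and 0.36 ± 0.12 in Huh7-labelled cells.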

How the results depend on the processing

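Of the values for single members under other settings 848 stayed on their side of the threshold, 31 lost the call and 14 gained one. A change of direction was counted only where a call was involved, so uncalled values could cross 0 unseen. The uncalled difference for IFIH1, for example, ran from -0.68 to 0.36 over all alternatives. When 1 library was left out the counts were 1225, 34 and 12, and 1 value reversed: the difference for IFITM1 was -0.25 (adjusted p = 0.00706) when the Huh7-labelled library that stood apart was left out, against 0.02 with it. Over all such fits it ran from -0.25 to 0.16. In Huh7-labelled cells no filter left 1 member higher (USP18 lost), the stricter filter of 5 FPKM and quantile normalization gave 2 lower, and fitting the compared groups alone left 0 lower, with BST2 at an adjusted p of 0.0601. The filter of 5 FPKM tests fewer members and left 5 higher in HepG2-labelled cells, 4 with a positive difference and 10 higher in the untreated HepG2-labelled line. Of the 9282 genes tested there, 2156, 1771 and 4057 had these calls. A pseudocount of 0.1 FPKM left 6 positive differences, with 1873 of all 15518 genes positive and called. Voom left 4, with 1446 of the 15518 genes. Without the intensity trend 1 member was lower in the untreated HepG2-labelled line (USP18 lost). Leaving out 1 library gave 1 to 3 higher and 1 to 4 lower in Huh7-labelled cells, 11 to 15 higher and 5 to 6 lower in HepG2-labelled cells, 8 to 10 positive and 4 to 5 negative differences, and 20 to 23 higher and 1 to 2 lower between the untreated lines. These counts show how far the calls moved and are not read as results about the members. IRF9 and ISG20 fell below the filter when any treated HepG2-labelled library was left out. Deviations of same-numbered libraries correlated between -0.0615 and 0.0403, so the numbers were not taken to pair libraries. With the replicate number as a block, 2 members were higher and 1 lower in Huh7-labelled cells, and 13 higher and 6 lower in HepG2-labelled cells (SP100 lost). That fit gave 10 positive and 4 negative differences, and 21 higher and 2 lower between the untreated lines. Over all 15518 genes it called 2415 higher and 2712 lower in Huh7-labelled and 3161 higher and 3249 lower in HepG2-labelled cells. It called 2043 positive and 1964 negative differences, and 5583 higher and 5528 lower between the untreated lines. Where no cause is given here, the cause was not tested. Depth limits members near 0 in Huh7-labelled cells, where OAS1, OAS2, OAS3, MX1 and XAF1 had at most 3 fragments per group.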

Other observations

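Beside HLA-B, HLA-C and HLA-E, B2M and GBP2 were higher with geniposide in HepG2-labelled cells. B2M, the light chain of class I molecules, changed by 0.76 ± 0.056 there (limma adjusted p = 3.11e-06) and by -0.31 ± 0.056 in Huh7-labelled cells (adjusted p = 0.00164). GBP2, a guanylate-binding protein known as a target of interferon gamma, had 2.68, 2.29 and 2.46 FPKM in treated and 0.536, 0.252 and 0.387 FPKM in untreated HepG2-labelled libraries (change 1.33 ± 0.096, adjusted p = 2.91e-06). Both were named after their values were seen. The 78 other interferon-stimulated genes summed to 1778 to 1839 FPKM in treated and 1157 to 1195 FPKM in untreated HepG2-labelled libraries, and to 563 to 612 FPKM in treated and 603 to 620 FPKM in untreated Huh7-labelled ones.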
